A study of Mus musculus with 12 samples.

Results

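The guide strands of the miRNA clusters miR-17-92 and miR-106b-25, together with that of the single gene miR-92b, make up a set of 10 mature miRNAs in a table of 1900. A guide strand is the arm of a miRNA hairpin that is mostly kept, and its partner strand is mostly discarded. The 10 were taken by name and occupy 12 rows, because miR-92a-3p and miR-19b-3p each come from 2 hairpins, and both rows of a miRNA were summed. Small RNA was sequenced from the gastrocnemius, the large calf muscle, of male C57BL/6 mice, in 6 libraries from young animals (6 months) and 6 from aged animals (24 months), 1 animal per library, with no other treatment or allele. Levels are given as FPKM, a read number divided by the length of the miRNA and by the mapped reads of its library. The table gives no read numbers, but small values in a library were whole multiples of what 1 read was worth. From this the mapped reads of a library came to 212621 to 6526695 in young muscle and 120437 to 7761592 in aged muscle, so that 1 read of a 22-nucleotide miRNA was worth 5.86 to 377 FPKM. Most young libraries were shallower than most aged ones. Young replicates 1 to 5 had 212621 to 609777 reads, while all aged libraries except aged replicate 5 had 1228036 to 7761592. For miRNAs with few reads, age and depth therefore cannot be fully told apart.

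As background, miRNAs guide Argonaute proteins to messenger RNAs through the seed, the bases after the first one at the 5′ end, and miRNAs with the same seed share most targets. The miR-17-92 transcript is induced by Myc and E2F factors and is best known for driving proliferation and survival, in part by repressing the Bcl2 family member Bim and the cell cycle inhibitor p21. miR-106b-25 is a paralog carried in the gene of the replication licensing factor Mcm7, so that it is transcribed together with a gene of DNA replication. Adult muscle is mostly postmitotic fibers, with few dividing cells among them.

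In mm10, miR-17-92 lies at chr14:115043671-115044506 on the plus strand, where 6 hairpins span 836 bases and overlap an exon of the noncoding gene Mir17hg. miR-106b-25 lies at chr5:138165321-138165818 on the minus strand, where 3 hairpins span 498 bases of an intron of Mcm7. Mir92b lies at chr3:89227116-89227198 on the minus strand, outside any annotated host gene on its strand. The second hairpins of miR-92a-3p and miR-19b-3p, Mir92-2 and Mir19b-2, belong to the third paralogous cluster, miR-106a-363, at chrX:52741693-52742567 on the minus strand.

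The mature sequences (RefSeq, GRCm38.p6) show how the 10 fall into 4 seeds and how close neighbours in a family are. Capitals mark the seed, bases 2 to 8 counted from the 5′ end.
mmu-miR-17-5p: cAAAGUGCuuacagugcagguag
mmu-miR-20a-5p: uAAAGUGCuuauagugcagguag
mmu-miR-106b-5p: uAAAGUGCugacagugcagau
mmu-miR-93-5p: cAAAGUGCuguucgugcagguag
mmu-miR-18a-5p: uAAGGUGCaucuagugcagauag
mmu-miR-19a-3p: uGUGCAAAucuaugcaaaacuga
mmu-miR-19b-3p: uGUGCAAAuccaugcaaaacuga
mmu-miR-92a-3p: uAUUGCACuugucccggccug
mmu-miR-92b-3p: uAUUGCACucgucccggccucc
mmu-miR-25-3p: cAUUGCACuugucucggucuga

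The AAAGUGC seed was shared by 4 of the 10, and 1 other, the AAGGUGC of miR-18a-5p, differs from it inside the seed. The GUGCAAA seed was shared by miR-19a-3p and miR-19b-3p, which differ at 1 base over 23 (U11C, from miR-19a-3p to miR-19b-3p, positions counted from the 5′ end). The AUUGCAC seed was shared by miR-92a-3p, miR-92b-3p and miR-25-3p, of which miR-92a-3p and miR-92b-3p differ at 2 of 21 compared bases (U10C and G21C). miR-17-5p and miR-20a-5p differ at 2 of 23 bases (C1U and C12U). It is not stated how reads that fit 2 such miRNAs with a mismatch were assigned, so values within these pairs may share reads.

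The levels of the 10 spanned 800.1-fold between miR-92a-3p and miR-18a-5p, and the seed AUUGCAC held most of the total. miR-92a-3p was the highest in every library, with a mean over the 12 libraries of 66555 FPKM and rank 35 among all miRNAs. miR-25-3p followed with 15516 FPKM, 4.29-fold lower, and miR-93-5p with 5403 FPKM. Each of these was above the next in 12 of 12 libraries, and so was miR-93-5p above miR-19b-3p (1543 FPKM). The middle of the order was less fixed. miR-19b-3p exceeded miR-20a-5p (1086 FPKM) in 10 of 12 libraries, miR-20a-5p exceeded miR-106b-5p (804 FPKM) in 9, and miR-106b-5p exceeded miR-92b-3p (564 FPKM) in 11. miR-92b-3p and miR-17-5p (543 FPKM) could not be ordered, each being higher in 6 libraries. miR-17-5p was above miR-19a-3p (143 FPKM) in 12 of 12 libraries. miR-19a-3p was above miR-18a-5p (83.2 FPKM) in 6, below it only in young replicate 5, and equal to it in the others. The last pair rested on 89 and 42 reads over all libraries.

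**Figure D1:**
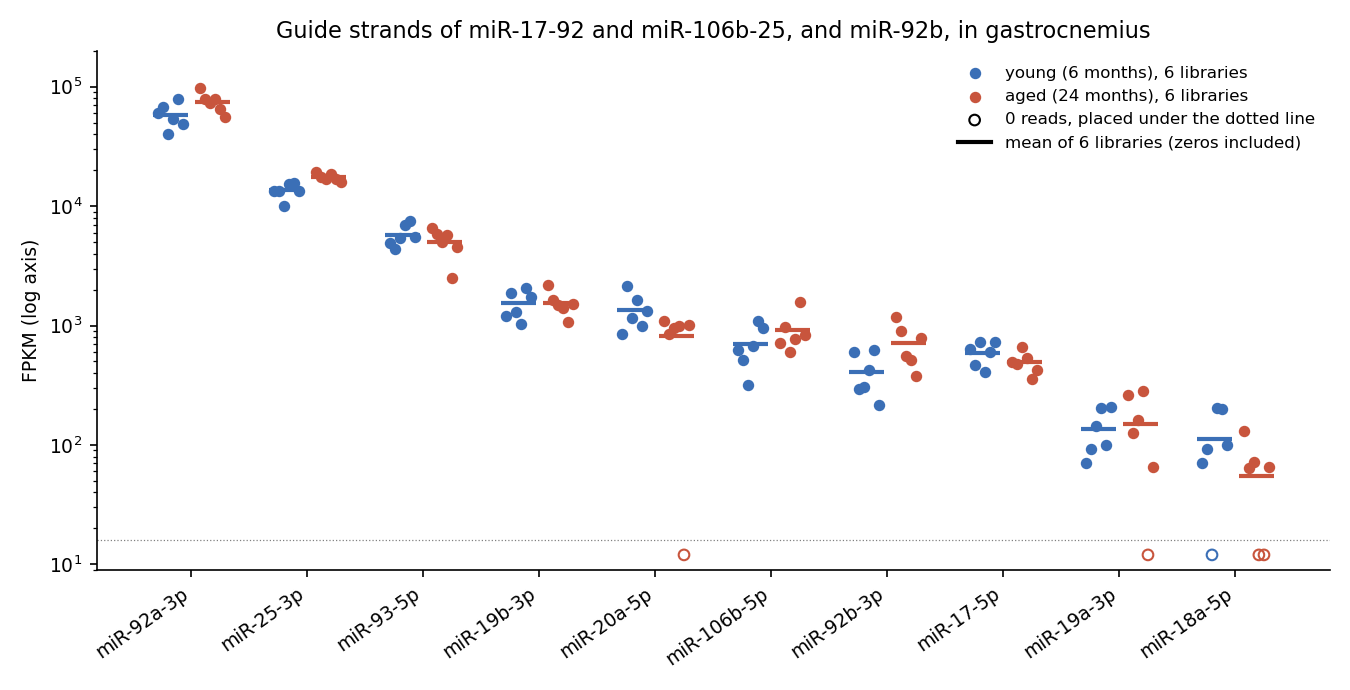
FPKM (log axis) of the 10 guide strands in each of 6 young (blue) and 6 aged (red) libraries, with bars at the group means; open circles are libraries with 0 reads. The aged libraries lie above every young library for miR-25-3p, and the groups overlap for the other 9.

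miR-92a-3p also made up most of its cluster. The 6 guide strands summed to 62022 ± 14212 FPKM in young and 77885 ± 15202 FPKM in aged muscle (SD, n = 6 each), and miR-92a-3p alone made up 93.8% ± 1.37 and 96.1% ± 1.01 of that sum. All 6 aged libraries were above the young median for this share, but the groups overlapped. The 3 guide strands of miR-106b-25 summed to 19980 ± 3100 FPKM in young and 23469 ± 2273 FPKM in aged muscle, again with overlap. All 10 together took 0.194% ± 0.0440 of the summed FPKM of the table in young and 0.234% ± 0.0504 in aged muscle.

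The change with age was tested with limma over the 482 miRNAs with reads in 5 or more of the 12 libraries, and all 10 members passed that filter. Changes are on the scale of log2(FPKM + 48.2), which understates the change of low miRNAs. With Benjamini-Hochberg adjustment over the 482, none of the 10 passed an adjusted p of 0.05 (smallest adjusted p = 0.0996). The same threshold called 14 of the 482, or 2.9%, and 3 of them, or 0.622%, were higher in aged muscle. Entries with identical fits under 2 names were counted separately, such as miR-136-3p and miR-3071-5p, both among the 14. At an unadjusted p under 0.05 there were 2 members, miR-25-3p and miR-92a-3p, against 12.9% of all tested miRNAs, which is 62. Members with a higher mean log2(FPKM + 48.2) in aged muscle numbered 5 of 10 (miR-19a-3p was higher in mean FPKM but not on this scale), close to the 55.4% of all tested, and the median change was -0.04 against 0.07 for all 482. Both clusters held members on either side of 0, with 2 of 6 higher on this scale in miR-17-92 and 2 of 3 in miR-106b-25. In whole muscle, fewer cells of a type and less of a miRNA per cell cannot be told apart.

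The members with the seed AUUGCAC were all 3 higher in aged muscle. This seed family is known for targets such as Bim and the integrin subunit gene Itga5. mmu-miR-25-3p, the last hairpin of miR-106b-25, ran from 10086 to 15500 FPKM with a median of 13400 in young muscle, and from 15826 to 19349 FPKM with a median of 17322 in aged muscle. The lowest aged library was above the highest young library, a pattern that 2 of the 482 miRNAs, or 0.415%, showed in this direction, the other being miR-34a-5p. In either direction the groups were apart for 13 of the 482, or 2.7%, of which 11 were lower in aged muscle. The values rested on 66 to 1911 reads per young library and 45 to 2856 per aged library. The means were 13515 ± 1965 FPKM in young and 17518 ± 1286 FPKM in aged muscle (SD, n = 6 each), and the log2 change was 0.38 (SE 0.12, 95% interval 0.13 to 0.64, limma adjusted p = 0.0996). The exact permutation test, two-sided, gave miR-25-3p p = 0.00216 (adjusted p = 0.0803 over the 482). This is the smallest p that 6 against 6 libraries allow, and it follows from the separation of the groups. miR-25-3p did not pass the threshold with the values as deposited. It passed when the libraries were rescaled by quantile normalization (log2 change 0.33, limma adjusted p = 0.0393) or by median-of-ratios scaling (0.36, adjusted p = 0.0247). It did not pass in any other alternative. There its limma adjusted p was 0.213 without young replicate 3 and at most 0.284, reached when limma was fitted without trend.

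mmu-miR-92a-3p, the most abundant member, ran from 40457 to 79565 FPKM with a median of 56684 in young muscle, and from 55280 to 98369 FPKM with a median of 75702 in aged muscle. The groups overlapped, with 5 of 6 aged libraries above the young median. Its log2 change was 0.37 (SE 0.15, 95% interval 0.06 to 0.68, limma adjusted p = 0.232, exact permutation p = 0.0758, adjusted 0.435). Leaving out single libraries moved it between 0.27 and 0.47. The highest aged value was that of aged replicate 1, and without that library the change was 0.29 (limma adjusted p = 0.410).

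mmu-miR-92b-3p, from its own gene on chromosome 3, ran from 215 to 622 FPKM in young muscle and from 377 to 1168 FPKM in aged muscle, with medians of 366 and 674. Every aged library exceeded the young median, and 3 exceeded the young maximum. The log2 change of 0.74 was the largest positive value among the 10, with a wide error (SE 0.39, 95% interval -0.06 to 1.54, limma adjusted p = 0.423, exact permutation p = 0.0455, adjusted 0.348). Only 52 reads in young and 204 in aged muscle stood behind it, and 4 of the 12 libraries had 3 reads or fewer.

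The members with the seed AAAGUGC lay on both sides of 0, with 1 of 4 higher and 3 of 4 lower in aged muscle and none near the threshold after adjustment. This is the seed through which the family represses p21 and Bim. miR-106b-5p had medians of 651 FPKM in young and 801 FPKM in aged muscle and differed by 0.40 in mean log2 value (SE 0.34, limma adjusted p = 0.679). The difference was 0.21 without young replicate 3, 0.23 without aged replicate 5 and at most 0.54 without another library. mmu-miR-93-5p, cut from the same transcript, ran from 4390 to 7538 FPKM in young and from 2521 to 6562 FPKM in aged muscle, and its mean log2 value differed by -0.23 (SE 0.20, limma adjusted p = 0.679). Its lowest value was that of aged replicate 5, on 7 reads, and without that library the difference was -0.044 (limma adjusted p = 0.947). mmu-miR-17-5p ran from 410 to 729 FPKM in young and from 360 to 666 FPKM in aged muscle. Its log2 change was -0.24 (SE 0.34, limma adjusted p = 0.826), with 5 of 6 aged libraries below the young median.

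mmu-miR-20a-5p ran from 855 to 2150 FPKM in young muscle, with a median of 1246. In aged muscle it ran from 0 to 1090 FPKM, with a median of 972, and all 6 aged libraries lay below the young median. The log2 change was -1.12 (SE 0.56, 95% interval -2.27 to 0.03, limma adjusted p = 0.398, exact permutation p = 0.0541, adjusted 0.389), and much of it came from 1 library. Aged replicate 5, the shallowest, had 0 reads of miR-20a-5p, where 1 read of 22 nucleotides was worth 377 FPKM. Without it the change was -0.38 (limma adjusted p = 0.494). With all 12 libraries and depth as a covariate it was -1.55 (limma adjusted p = 0.126). The other 5 aged libraries ran from 855 to 1090 FPKM.

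The remaining members had small or poorly measured changes. miR-18a-5p, with 20 reads in young and 22 in aged muscle, was at 0 in 1 young and 2 aged libraries and its mean log2 value differed by -0.59 (SE 0.50, limma adjusted p = 0.679). The difference was -0.90 without young replicate 3, -1.57 with a pseudocount of 1 and -0.14 with a pseudocount 10 times as large. miR-19b-3p, known with miR-19a-3p as a main oncogenic part of miR-17-92, had nearly the same mean at both ages, 1535 ± 414 FPKM in young and 1552 ± 361 FPKM in aged muscle (SD, n = 6 each). Its log2 change was 0.03 with a 95% interval from -0.47 to 0.53 (limma adjusted p = 0.990). miR-19a-3p had a log2 change of -0.10 with an interval from -1.20 to 1.00 (limma adjusted p = 0.969), on 36 reads in young and 53 in aged muscle. The sign of both miR-19 values turned with the setting used.

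**Figure D2:**
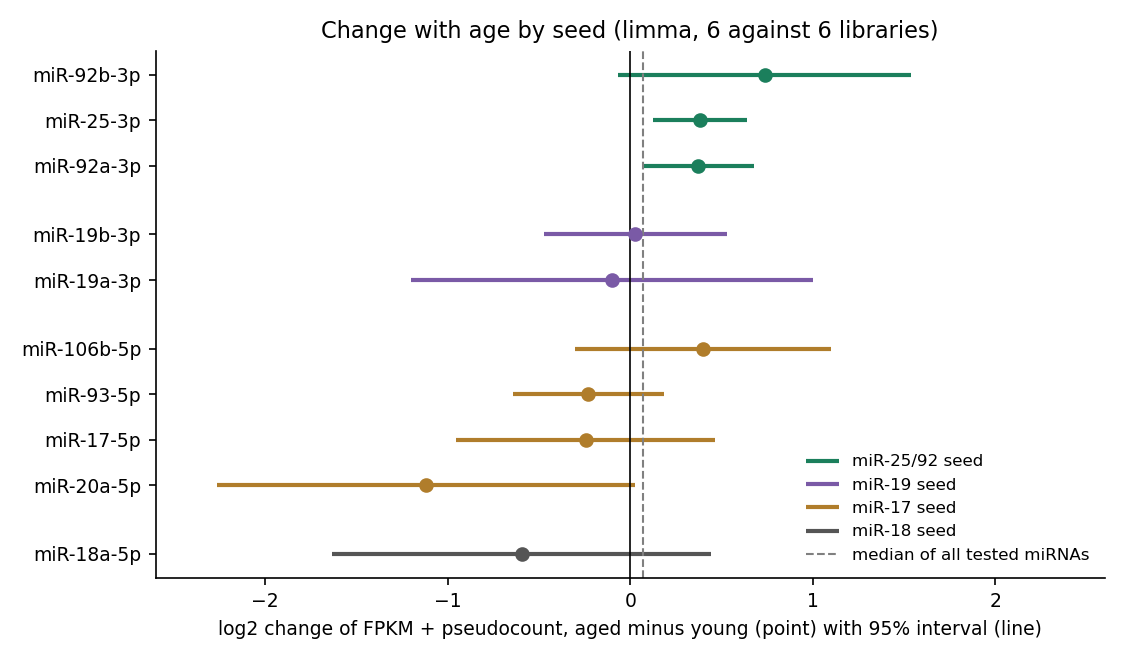
Log2 change of FPKM + 48.2, aged minus young, of each guide strand (point) with its 95% interval from limma (line), grouped and coloured by seed; the dashed line is the median of 0.07 over the 482 tested miRNAs. The 3 members with the miR-25/92 seed lie right of zero, and the intervals of miR-25-3p and miR-92a-3p exclude it before adjustment.

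The balance among the 10 was also described, without a test, because it was looked at after the single values were known. The seed AUUGCAC took 87.4% ± 2.11 of the FPKM of the 10 in young and 91.2% ± 1.37 in aged muscle (SD, n = 6 each). Every aged library exceeded the young median, and 5 exceeded the young maximum of 89.8%. The share of miR-93-5p was lower in aged muscle, at 7.15% ± 1.58 in young and 4.90% ± 1.02 in aged muscle, with 0 of 6 aged libraries above the young median. miR-93-5p and miR-25-3p are cut from the same intron of Mcm7. The log2 ratio of miR-93-5p to miR-25-3p lay between -1.60 and -0.90 in young muscle, with a mean of -1.23 ± 0.26 (SD). In aged muscle it lay between -2.73 and -1.55, with a mean of -1.85 ± 0.44. The groups overlapped by 2 aged libraries, and the lowest value came from aged replicate 5.

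Likeness between 2 members was described by the SD over the 12 libraries of their log2 ratio. It is small where both go up and down together, and also where both vary little. A small SD therefore does not show by itself that 2 miRNAs move together. The 18 pairs from the same cluster had a median SD of 0.78 and the 27 other pairs a median of 0.68. Pairs of miR-20a-5p, with 0 reads in aged replicate 5, ran from 0.97 to 1.46 within its cluster and from 1.11 to 1.79 outside it. miR-18a-5p and miR-19a-3p had 3 reads or fewer in 9 and 7 of the 12 libraries. The part of counting error in the 2 medians was not tested. The steadiest pair was miR-92a-3p with miR-25-3p, which come from different clusters and share a seed, with an SD of 0.20 and a mean log2 ratio of 2.08 in young and 2.07 in aged muscle. These 2 are also the most deeply read members, and the SD of a pair includes counting error. Among 202 abundant miRNAs outside the clusters, the one most like miR-25-3p was let-7f-5p (SD 0.13) and the one most like miR-92a-3p was let-7a-5p (SD 0.15). let-7a-5p and let-7f-5p, which restrain growth and are abundant in differentiated tissue, had log2 changes of 0.31 (limma adjusted p = 0.245) and 0.30 (adjusted p = 0.196). For the other 8 members the smallest SD lay between 0.25 for miR-19b-3p with miR-328-3p and 0.58 for miR-18a-5p with miR-28a-3p.

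**Figure D3:**
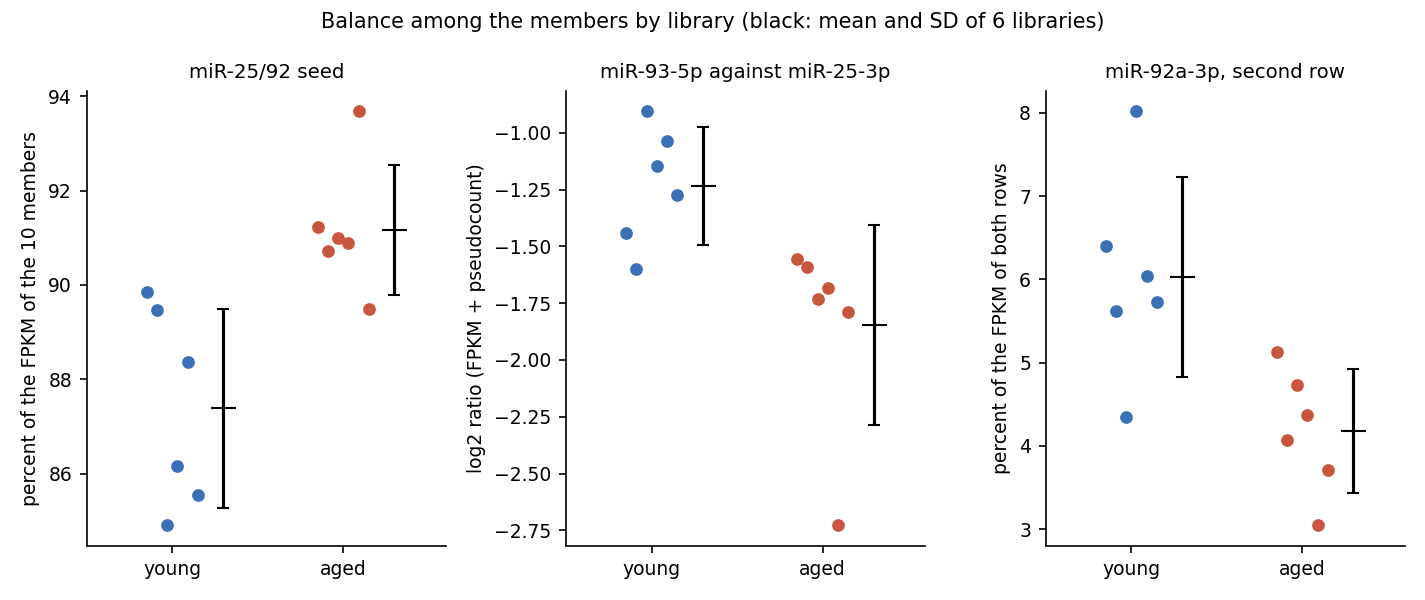
Values per library in young (blue) and aged (red) muscle with mean and SD in black, of the share of the miR-25/92 seed in the FPKM of the 10 members (percent), of the log2 ratio of miR-93-5p to miR-25-3p, and of the share of the second row in miR-92a-3p (percent). The means were 87.4% and 91.2%, -1.23 and -1.85, and 6.03% and 4.18%.

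The 2 hairpins that give miR-92a-3p yield the same mature sequence, but the table gave their rows very different values. The first row ran from 38699 to 74761 FPKM in young and from 53232 to 93327 FPKM in aged muscle. The second ran from 1758 to 4804 FPKM and from 1978 to 5043 FPKM. The first row was thus 16.2 ± 3.45-fold the second in young and 23.6 ± 4.77-fold in aged muscle (SD, n = 6 each). Of 29 miRNAs with exactly 2 rows, each above 0 in at least 5 libraries, none had rows further apart, and the median distance was 0.05 on the log2 scale. Which row stands for Mir92-1 on chromosome 14 and which for Mir92-2 on chromosome X is not stated. The hairpins go on differently after the shared mature sequence. Shown are the mature sequence in lower case and the next 5 bases of each hairpin in capitals. They are given for miR-92a-3p and for miR-19b-3p, whose rows were near equal in their means.
miR-92a-3p in Mir92-1: uauugcacuugucccggccugUUGAG
miR-92a-3p in Mir92-2: uauugcacuugucccggccugAGGAA
miR-19b-3p in Mir19b-1: ugugcaaauccaugcaaaacugaCUGUG
miR-19b-3p in Mir19b-2: ugugcaaauccaugcaaaacugaUUGUG

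The second row of miR-92a-3p took 6.03% ± 1.20 of both rows in young and 4.18% ± 0.743 in aged muscle, with all 6 aged libraries below the young median. The log2 change of the ratio of the first to the second row was 0.55 (SE 0.16, limma adjusted p = 0.155 over the 29). At an adjusted p of 0.05 limma called 0 of the 29, or 0%, and at an unadjusted p under 0.05 it found 1, or 3.45%, which was miR-92a-3p. Fitted as separate rows, the first had a log2 change of 0.40 (limma adjusted p = 0.192) and the second of -0.15 (adjusted p = 0.849). Reads that end within the mature sequence fit both hairpins alike, and whether the authors counted them in 1 row or in both is not stated. miR-19b-3p had rows with near equal means, 802 and 733 FPKM in young and 849 and 703 FPKM in aged muscle. In single libraries they differed, the second taking 33.3% to 80% of both in young and 33.3% to 57.6% in aged muscle.

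The partner strands were rare, apart from miR-106b-3p. Of 12 partner strands, 5 passed the filter, and 3 had no read in any library (miR-19b-2-5p, miR-92a-2-5p and miR-92b-5p). miR-25-3p was on average 954-fold above miR-25-5p, on 7620 against 7 reads. miR-92a-3p was 791-fold above miR-92a-1-5p, which had 43 reads. miR-93-5p was 210-fold above miR-93-3p (15 reads), miR-20a-5p 77.4-fold above miR-20a-3p (11 reads) and miR-17-5p 10.2-fold above miR-17-3p (34 reads). miR-106b differed from these, since its arms had 357 reads for miR-106b-5p and 319 for miR-106b-3p, and the 5p arm was higher in 8 of 12 libraries. The partner strand miR-106b-3p has a seed unlike any of the guide strands, shown here in capitals.
mmu-miR-106b-3p: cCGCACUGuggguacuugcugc

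All 5 tested partner strands had a higher mean log2 value in aged muscle, against 55.4% of all tested miRNAs. This count depends on the filter and on depth and is not read as a result. miR-20a-3p and miR-93-3p passed with 5 libraries above 0, the fewest allowed, and their young medians were 0 FPKM. Such rare strands are more easily seen in deep libraries, most of which were aged. The changes of the 5 lay between 0.11 and 0.45 with a median of 0.26, and none passed the threshold (limma adjusted p from 0.679 to 0.955). In mean FPKM miR-92a-1-5p was lower with age, at 91.9 in young and 76.5 in aged muscle. Over all libraries miR-20a-3p rested on 11 reads and miR-93-3p on 15. The ratio of 5p to 3p was tested over 157 pairs of arms, of which 1, or 0.637%, had an adjusted p under 0.05. None of the 5 member hairpins tested did. At an unadjusted p under 0.05 there was 1 of these 5, against 13.4% of all pairs, which is 21. It was miR-20a, whose ratio of 5p to 3p had a difference of -1.48 on the log2 scale between ages (SE 0.63, limma adjusted p = 0.310). The change was -0.84 without aged replicate 5 (limma adjusted p = 0.365), in which both arms had 0 reads. That of miR-106b differed by 0.29 (SE 0.45, limma adjusted p = 0.815).

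**Figure D4:**
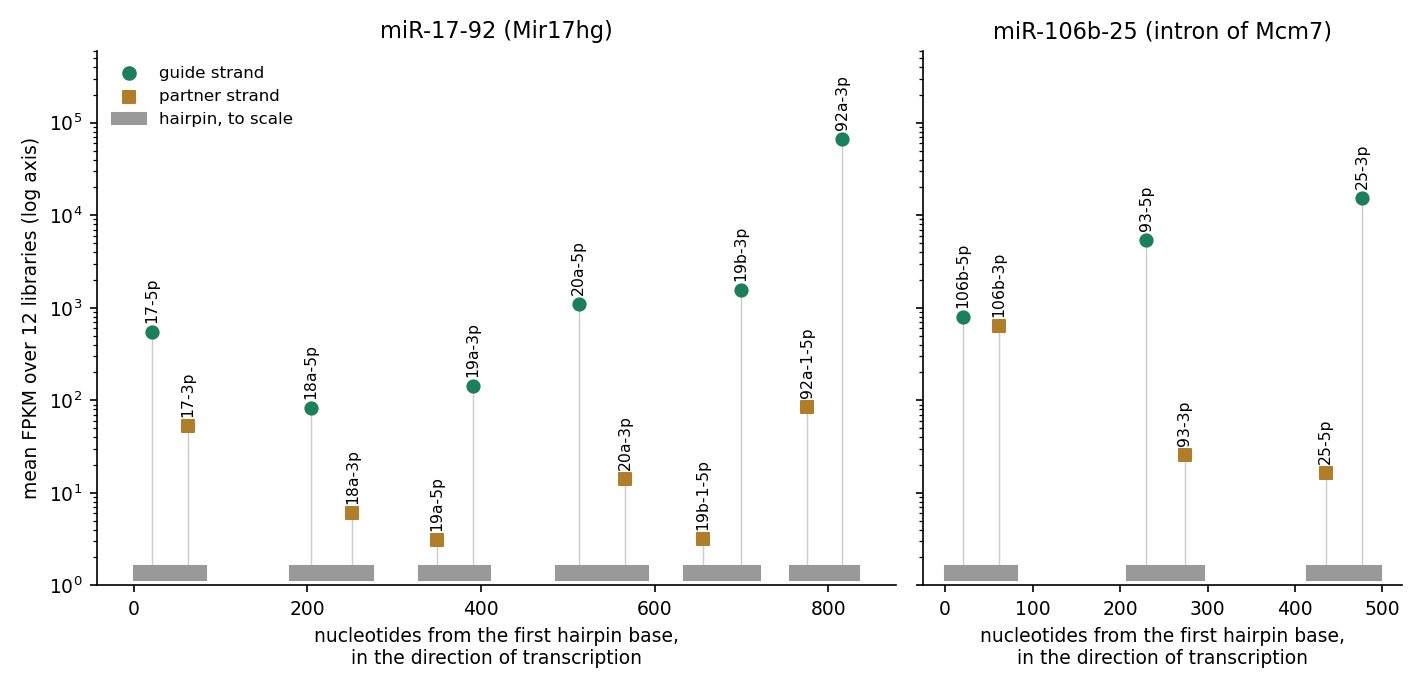
Hairpins of miR-17-92 (left) and miR-106b-25 (right) to scale in nucleotides from the first hairpin base (grey boxes), with the mean FPKM over 12 libraries (log axis) of the guide (green circles) and partner strand (brown squares) of each. miR-92a-3p and miR-19b-3p include the values of their second rows, and miR-106b is the one hairpin whose strands lie at similar levels (804 and 635 FPKM).

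The third cluster, miR-106a-363 on the X chromosome, carries the same seeds. Apart from the hairpins it shares with miR-92a-3p and miR-19b-3p, whose rows could not be told apart, its strands were near absent. Of these 8 mature strands, 5 had no read in any library. miR-363-3p, with the seed of miR-92a-3p, had 10 reads in young and 15 in aged muscle (limma adjusted p = 0.995). miR-20b-5p had 3 and 4 reads. miR-106a-5p, which differs from miR-17-5p at 1 base of 23 (U10A), had 1 read in young and 3 in aged muscle, against 136 and 182 for miR-17-5p.

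Cell type markers were read beside these values. The 5 muscle miRNAs were present, led by miR-133a-3p at 5367290 ± 1029290 FPKM in young and 4709740 ± 332187 FPKM in aged muscle. The summed muscle level was almost entirely miR-133a-3p and was below the young median in all 6 aged libraries. miR-133a-3p had a log2 change of -0.17, while the other 4 muscle miRNAs had positive values, 0.17 for miR-1a-3p, 0.79 for miR-499-5p, 1.29 for miR-208b-3p and that of miR-206-3p. miR-206-3p, which is high in regenerating and slow fibers, rose with a log2 change of 1.54 (adjusted p = 0.0296 in limma) and was the 1 muscle marker of 5 to pass. Blood cells also express miR-92a and miR-25. The summed level of 3 red blood cell miRNAs ran from 5828 to 10486 FPKM in young and from 3022 to 10507 FPKM in aged muscle, and that of 4 white blood cell miRNAs from 8449 to 19468 and from 11136 to 24904 FPKM. None of these 7 passed the threshold, and 2 of 6 aged libraries were above the young median for red and 4 of 6 for white blood cells. Aged replicate 1, with the highest miR-92a-3p and miR-25-3p, also had the highest sum of both lists, and the part of blood cells in the members' values was not tested. The 2 endothelial miRNAs, arms of miR-126a, summed to 366513 ± 52380 FPKM in young and 359487 ± 17351 FPKM in aged muscle.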

How the data were processed

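Small RNA libraries of 12 gastrocnemius muscles, 6 young and 6 aged, were pooled in one lane with 36-base reads. According to the methods, the authors removed adaptors and used BWA with its defaults to place the reads on mm10, then derived FPKM for the mature miRNAs in miRBase 20. The deposited table holds log2 FPKM, and 0 where there was no read. Whether counting used strand and how multiply mapping reads were assigned is not stated. The log was undone, copies were summed and groups were taken from the sample labels. Depth was recovered from the step of 1 read, and of 3212 values below 25 reads, 99.3% were whole to within 0.15.

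Log2(FPKM + 48.2), where 48.2 is the smallest nonzero value of a library (median of the 12), was fitted with limma 3.58.1 in R 4.3.3 (eBayes with trend, aged against young, two-sided, Benjamini-Hochberg at 0.05) for 482 miRNAs. The 5p to 3p ratio and the ratio of 2 rows were fitted likewise, the second without trend. The fits were tested on simulated data. Other values are mean ± SD. Python 3.11.15, pandas 2.3.3, NumPy 2.4.6 and SciPy 1.17.1 were used. Hairpin positions come from GENCODE M21 and RefSeq.

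The members, marker lists and rule for naming miRNAs (all members, their partner strands, the miR-106a-363 cluster and, for each member, the most similar abundant miRNA) were chosen with earlier results of these data known. miR-34a-5p was named after its values were seen. The replicate numbers did not pair the samples, since the correlations of deviations of same-numbered samples ran from -0.0943 to 0.0949. Intervals come from the spread between libraries, which holds the spread between animals and the counting error together. The part of each was not tested. The study's mRNA sequencing was not analysed here.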

Additional observations from a re-analysis of the deposited data

Results flagged for a closer look

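A library was noted where its distance to the nearest of the other 5 in its group took more than 0.625 of the group's whole range. This was tried in 22 groups, for the 10 members and their summed share at each age, and 3 met it, where chance gives about 1.1.

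miR-20a-5p stood at 5.59 on the log2(FPKM + 48.2) scale in aged replicate 5, on 0 reads. The other 5 aged libraries stood at 9.82 to 10.2. That library was the shallowest of all, with 120437 mapped reads. miR-25-3p stood at 13.3 in young replicate 3, on 66 reads, against 13.7 to 13.9 in the other young libraries. Without young replicate 3 the log2 change of miR-25-3p was 0.30 (limma adjusted p = 0.213). The 10 members together took 0.328% of the summed FPKM in aged replicate 1, against 0.190% to 0.236% in the other aged libraries. In the same library the white blood cell miRNAs summed to 24904 FPKM, and their part in this share was not tested.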

How the results depend on the processing

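For the 10 members and 5 arm ratios, 321 values were recomputed under 26 alternatives, of which 305 kept their direction and their side of the threshold. miR-25-3p alone crossed it, so that the number of members with an adjusted p under 0.05 was 1 with quantile normalization and 1 with median-of-ratios scaling, against 0 in all other alternatives. Leaving out each library in turn gave 0 to 0 such members, 1 to 3 at an unadjusted p under 0.05 and 4 to 6 members higher in aged muscle. The unadjusted count was 1 without young replicate 3 or without the deepest library of each group, and 2 or 3 in the other alternatives. The direction turned for miR-19a-3p with a pseudocount 10 times as large (0.016) and with quantile normalization (0.45), for miR-19b-3p with depth as a covariate (-0.064), and for the 5p to 3p ratio of miR-92a-1 with a pseudocount of 1 (1.24). Over single libraries left out, miR-19a-3p ran from -0.30 to 0.26, miR-19b-3p from -0.075 to 0.12, and the arm ratios of miR-92a-1 from -0.47 to 0.053 and of miR-106b from -0.017 to 0.47. The cause was not tested. For arm ratios the unadjusted count was 2 with the larger pseudocount and 0 to 1 without single libraries. With copies averaged instead of summed, miR-92a-3p had means of 29146 FPKM in young and 37410 FPKM in aged muscle and miR-19b-3p of 767 and 776 FPKM, by construction. With the replicate number as a block, 0 members and 14 of the 482 miRNAs were called, as without it, and 3 members had an unadjusted p under 0.05. The exact permutation test called 0 of the 482, with 66 at an unadjusted p under 0.05. Raising all values below 1 read of the shallowest library to that value left no value for miR-18a-5p and miR-19a-3p. This step and the fits of single rows were chosen after the data were seen. Depth limits all members below miR-93-5p, since 1 read in the shallowest library was worth 377 FPKM.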
